A study of Mus musculus with 8 samples.

Results

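Etv2, Kdr, Flt1, Tek, Tie1, Pecam1, Cdh5, Cldn5, Emcn and Icam2 trace the path from a vascular progenitor to an endothelial cell. They were taken by name as 10 of the 27998 gene rows of the single-cell RNA count tables, and all 10 were found in both tables. The list was divided by known order of use: Etv2 and Kdr as early genes, and Pecam1, Cdh5 and Cldn5 as late genes. The other 5 members were described one by one.

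The series followed mouse embryonic stem cells of an E14 line with an EmGFP reporter of NKX2-5, a cardiac transcription factor. All groups share this line, fibroblast feeders before differentiation, no added treatment, and embryoid bodies begun as hanging drops. The single-cell groups were 1 library of wild type cells (WT) and 1 of Tet-triple knockout cells (TKO), both at day 5, and the comparison asks how these genes differ without TET enzymes, which oxidise 5-methylcytosine in DNA. The other 6 samples profiled 5-hydroxymethylcytosine in wild type DNA of days 0, 2 and 5 by pull-down and were not analysed here. Whether the TKO line is 1 clone, and which part of each Tet gene was removed, is not given in the sources used here.

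ETV2 is an ETS-family transcription factor that is switched on briefly in mesoderm and is needed for endothelial and blood cells to form. Its targets include Kdr, which encodes the VEGF receptor VEGFR2. Cells that go on to become endothelium then gain the Tie receptors and the proteins of endothelial contacts, while Etv2 is turned off. Embryoid bodies pass through this sequence without a vessel wall or blood flow.

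After filtering, the WT-labelled library held 4389 cells with 37503810 unique molecular identifiers (UMIs, each a counted RNA molecule) and the TKO-labelled library 3196 cells with 33483998. The median cell had 7847 and 9678 UMIs. Transcripts of Tet1, Tet2 and Tet3 were counted in both libraries, with 762, 154 and 680 UMIs under the TKO label, and reads outside the removed part check nothing, so the libraries are named by their labels. Both labels call the cells embryonic stem cells, but clusters led by pluripotency genes held 44 of the 4389 WT-labelled cells and 344 of the 3196 TKO-labelled cells. Most clusters were almost wholly of 1 library. Erythroid markers summed to 7875 and 281 CPM (UMIs scaled to a common library total) and mesenchyme markers to 1887 and 28.9 CPM in the WT-labelled and TKO-labelled library. The 2 tables shared 21 barcode sequences. With 1 library per group there is no replicate and no test, a difference in culture or preparation cannot be told apart from one of genotype, and every interval in brackets is a 95% interval that covers counting error only.

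The promoters of the early pair and of 3 members that were much lower under the TKO label are shown to let the CpG content and ETS-type motifs be read beside the levels. Each runs in the strand of the gene, from RefSeq on GRCm38.p6, from 250 bases before to 50 bases after the start used for that promoter. This start is not always the outer end of the gene span given below. The Etv2 and Kdr windows lie wholly inside those spans, and the Tek window mostly so. Capitals mark AGGAAG or CGGAAG on either strand, hexamers that hold the GGAA core of ETS proteins.
Etv2, chr7:30635803-30636102, minus strand: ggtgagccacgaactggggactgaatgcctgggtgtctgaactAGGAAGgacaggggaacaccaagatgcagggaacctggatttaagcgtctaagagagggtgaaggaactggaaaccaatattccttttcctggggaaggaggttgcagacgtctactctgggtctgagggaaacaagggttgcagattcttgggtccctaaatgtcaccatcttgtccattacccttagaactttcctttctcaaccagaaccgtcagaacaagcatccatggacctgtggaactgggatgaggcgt
Kdr, chr5:75978406-75978705, minus strand: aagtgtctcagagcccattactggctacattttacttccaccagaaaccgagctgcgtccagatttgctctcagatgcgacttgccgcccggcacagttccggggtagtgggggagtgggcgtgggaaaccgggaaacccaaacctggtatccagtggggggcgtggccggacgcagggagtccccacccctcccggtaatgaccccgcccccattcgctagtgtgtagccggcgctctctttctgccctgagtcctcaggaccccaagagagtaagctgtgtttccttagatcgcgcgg
Tie1, chr4:118489800-118490099, minus strand: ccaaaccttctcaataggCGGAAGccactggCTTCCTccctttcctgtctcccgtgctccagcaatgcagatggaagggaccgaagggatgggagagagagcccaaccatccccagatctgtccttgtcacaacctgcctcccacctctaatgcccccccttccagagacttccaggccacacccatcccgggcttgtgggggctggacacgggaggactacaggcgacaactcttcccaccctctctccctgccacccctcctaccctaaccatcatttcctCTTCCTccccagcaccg
Tek, chr4:94739039-94739338, plus strand: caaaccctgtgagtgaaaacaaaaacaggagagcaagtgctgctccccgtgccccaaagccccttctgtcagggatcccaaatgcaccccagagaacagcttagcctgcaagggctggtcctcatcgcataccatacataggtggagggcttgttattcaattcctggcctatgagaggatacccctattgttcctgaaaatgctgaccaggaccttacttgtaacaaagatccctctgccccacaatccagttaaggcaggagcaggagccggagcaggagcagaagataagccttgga
Cldn5, chr16:18776597-18776896, plus strand: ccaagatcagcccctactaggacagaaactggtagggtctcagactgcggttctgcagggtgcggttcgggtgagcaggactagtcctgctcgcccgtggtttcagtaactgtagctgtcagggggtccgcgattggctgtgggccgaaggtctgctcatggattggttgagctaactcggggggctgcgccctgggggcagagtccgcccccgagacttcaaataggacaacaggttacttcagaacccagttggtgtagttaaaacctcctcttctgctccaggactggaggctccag
The Tie1 window held 3 of these hexamers and the Etv2 window 1, while the Kdr, Tek and Cldn5 windows held 0. Among the 7 members found in the promoter table, Flt1 and Emcn held 2 each, so 4 of 7 had at least 1, against 46.5% of all 32851 windows of that length. A match describes letters only and is not a binding site. CpG dinucleotides numbered 29 in the Flt1 window, 19 in Kdr, 12 in Cldn5, 7 in Tie1, 5 in Etv2, 3 in Tek and 2 in Emcn, against a median of 7 and quartiles of 3 and 20 over all windows. Pecam1, Cdh5 and Icam2 were not among the matched promoters.

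Over whole libraries the early genes were higher under the TKO label, and the genes of the Tie receptors and endothelial contacts were lower. Of the 10 members, 6 were at least 2-fold lower in the TKO-labelled library, against 12.6% of the 15344 genes that reached 10 UMIs over the 2 libraries combined. None of the 10 was at least 2-fold higher, against 13.7% of those genes. The median log2 ratio (TKO over WT) was -1.46 over the members and 0.14 over all genes tested. Scaling by median-of-ratios moved all log2 ratios by -0.14 and scaling by UMIs per cell by 0.29, and no member changed direction under either.

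Etv2, on chromosome 7 (30633616 to 30636509), stood at 8.51 CPM in the WT-labelled library (319 UMIs) and 14.2 CPM in the TKO-labelled library (476 UMIs). The ratio was 1.67 (1.45 to 1.93), and it passed 2-fold only when UMIs per cell replaced CPM, at 2.05. The share of cells with an Etv2 UMI was nevertheless alike, 5.22% and 5.35% in full cells and 2.94% (2.44 to 3.51) and 3.06% (2.47 to 3.74) after each cell was thinned to 4000 UMIs. The higher total therefore came with more UMIs in each positive cell, 1.39 and 2.78 on average in full cells.

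Kdr, on chromosome 5 (75932827 to 75979072), showed the same arrangement. Its level was 46.2 CPM under the WT label and 56.0 CPM under the TKO label, a ratio of 1.21 (1.14 to 1.30). Fewer TKO-labelled cells held it, 17.7% against 22.0% in full cells and 11.7% (10.6 to 12.9) against 13.4% (12.4 to 14.5) in thinned cells. Each Kdr-positive cell held 1.79 UMIs on average under the WT label and 3.31 under the TKO label.

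Flt1, on chromosome 5 (147561604 to 147726438), encodes VEGFR1, which binds VEGF tightly and limits its action on VEGFR2. It stood at 9.97 CPM under the WT label and 15.1 CPM under the TKO label, 1.52-fold higher in the latter (1.33 to 1.74). Thinned cells with a Flt1 UMI made up 2.89% and 3.76%. Its cells were not the same kind in both libraries, as the cluster values below show.

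Tek, on chromosome 4 (94739086 to 94874976), encodes TIE2, the receptor of the angiopoietins. It had the lowest ratio of the 10 members: 30.3 CPM (1138 UMIs) under the WT label and 1.08 CPM (36 UMIs) under the TKO label, or 28.2-fold lower (20.3 to 40.5) in the TKO-labelled library. A Tek UMI was seen in 18.9% of full WT-labelled cells and 0.845% of full TKO-labelled cells, and in 10.8% and 0.399% of thinned cells. Tie1, on chromosome 4 (118471191 to 118489849), encodes the partner receptor of TIE2. It stood at 6.11 CPM and 1.31 CPM, 4.65-fold lower under the TKO label (3.35 to 6.57).

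Cdh5, on chromosome 8 (104101613 to 104144504), encodes VE-cadherin of endothelial adherens junctions. It stood at 11.3 CPM (424 UMIs) under the WT label and 3.29 CPM (110 UMIs) under the TKO label, 3.44-fold lower (2.78 to 4.28); in thinned cells the ratio was 0.170 (0.104 to 0.266) against 0.291 in full cells. Cldn5, on chromosome 16 (18776847 to 18778262), encodes the tight junction protein claudin-5. It stood at 16.5 CPM (617 UMIs) and 2.57 CPM (86 UMIs), 6.41-fold lower under the TKO label (5.11 to 8.12). Both genes of cell junctions were thus lower in total and in share of cells, with Cdh5 in 2.56% and 0.532% and Cldn5 in 2.14% and 0.665% of thinned cells.

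Pecam1, on chromosome 11 (106654213 to 106715281), encodes CD31, an adhesion protein of endothelial and several blood cells that pluripotent cells carry as well. It stood at 12.1 CPM (452 UMIs) under the WT label and 5.47 CPM (183 UMIs) under the TKO label, 2.21-fold lower (1.85 to 2.63). When UMIs per cell replaced CPM its ratio was 0.556, short of 2-fold. Icam2, on chromosome 11 (106377656 to 106388139), encodes another endothelial adhesion molecule. It stood at 8.77 CPM (329 UMIs) and 0.478 CPM (16 UMIs), 18.4-fold lower under the TKO label (11.1 to 32.5). Emcn, on chromosome 3 (137341062 to 137431069), encodes endomucin, a sialomucin of venous and capillary endothelium. It was scarce in both libraries, 2.05 CPM (77 UMIs) and 1.64 CPM (55 UMIs), and its ratio of 0.80 (0.556 to 1.15) spans 1.

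**Figure D1:**
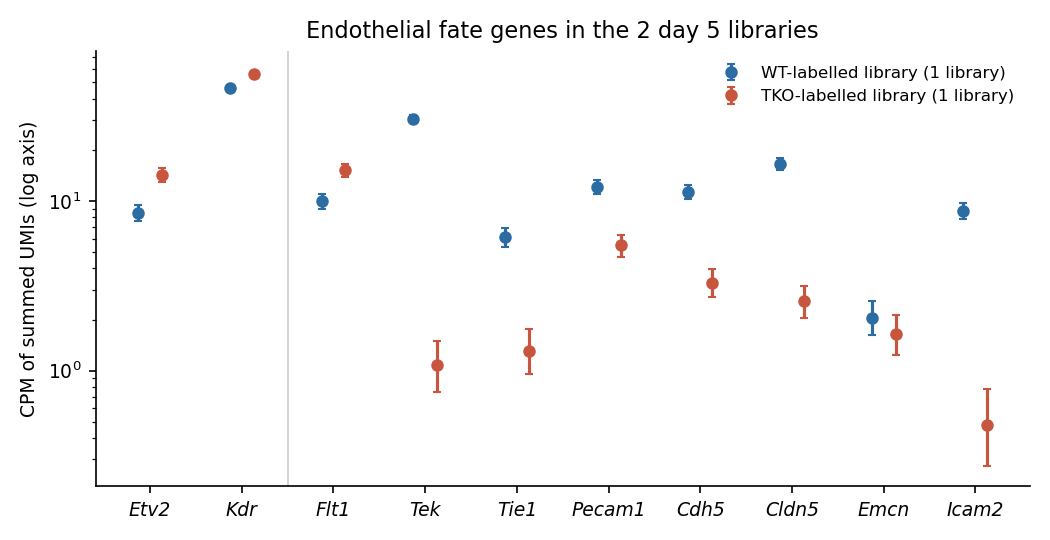
Level of each gene in the WT-labelled and the TKO-labelled library, in CPM of summed UMIs on a log axis; points are 1 library each and bars are 95% counting intervals. Etv2, Kdr and Flt1 are higher under the TKO label (14.2 against 8.51 CPM for Etv2), Emcn overlaps, and the other 6 are lower, Tek most of all (1.08 against 30.3 CPM).

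Clustering was run without the 10 members, so that the members did not decide which cells were grouped. A single cluster was named endothelial-like from genes outside the list: Plvap, Ramp2, Esam, Rasip1 and Rhoj were among its 10 leading genes. It held 189 WT-labelled and 66 TKO-labelled cells. These numbers serve as denominators only, since marker genes used to form the cluster themselves differed between the libraries. All 18 non-member endothelial markers had a UMI in the cluster in both libraries, and they summed to 3715 and 2932 CPM inside it against 213 and 135 CPM outside. Egfl7 alone gave 715 and 1331 CPM of the sums inside. In the cluster 7 of the 18 were at least 2-fold lower under the TKO label and 1 higher (Sox7). The shares over the 9426 genes tested there were 8.93% and 8.02%.

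The members differed by degrees in where they were counted in the WT-labelled library. Emcn, Icam2, Cldn5 and Cdh5 were concentrated in the endothelial-like cells, which held 96.1%, 96.1%, 94.7% and 92.9% of their UMIs. Tie1 had 73.4%, Flt1 61.5%, Pecam1 41.6%, Etv2 40.4%, Kdr 33.5% and Tek 10.6% of its UMIs there. The late list therefore mixes narrowly and broadly counted genes, with Pecam1 the broad one. Cells that should lack the contact genes held them rarely: erythroid-like cells of the WT-labelled library (median 9693.5 UMIs) held Cdh5, Cldn5 and Icam2 in 0.223%, 0.446% and 0.223% of 448 thinned cells, and definitive endoderm-like cells of the TKO-labelled library (median 10493.5 UMIs) in 0, 0.198% and 0.0992% of 1008, where a count of 0 allows up to 0.298%.

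Tek was mostly a gene of other cells in the WT-labelled library. The mesenchyme-like cluster, led by Lum, Postn, Col3a1 and other matrix genes and made of 1287 WT-labelled cells, held 375 Tek UMIs at 38.4 CPM, with a Tek UMI in 13.2% of thinned cells. An unnamed cluster led by Bnc1 and Upk3b, genes known from mesothelium, held 450 Tek UMIs in 1050 WT-labelled cells at 42.6 CPM, in 15.7% of thinned cells. The main erythroid-like cluster of the same library, which should lack the gene, had Tek in 0.262% of thinned cells (1 of 381), at a median depth of 9101 UMIs against 7216 in the mesenchyme-like cluster. A smaller erythroid-like cluster of 68 cells, whose median doublet score was 0.3, stood at 18.9 CPM for Tek. Outside the endothelial-like cells Tek was 92.5-fold lower under the TKO label (50.1 to 194), with 1017 and 10 UMIs. The mesenchyme-like cluster held 0 TKO-labelled cells, and mesenchyme markers moved with Tek over the whole library, 9 of 10 at least 2-fold lower; the part this played in the Tek ratio was not tested.

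Flt1 was counted in endoderm as well as in endothelial-like cells. In the TKO-labelled library the definitive endoderm-like cluster (1070 cells, led by Trh, Cldn6 and Epcam) held 312 Flt1 UMIs, 61.5% of the library's total, at 26.4 CPM and in 7.84% of thinned cells. In the WT-labelled library the visceral endoderm-like cluster (182 cells) stood at 43.7 CPM and the 38 definitive endoderm-like cells at 82.0 CPM. Erythroid-like cells of the WT-labelled library had Flt1 in 0.670% of thinned cells. Outside the endothelial-like cells Flt1 was 2.73-fold higher under the TKO label (2.24 to 3.33), while inside it was 1.27-fold higher (1.03 to 1.57). The inside interval spanned 1 when each library was clustered alone (1.15, 0.933 to 1.42), with members kept in the clustering (1.202, 0.973 to 1.48), without the 5 cells richest in member UMIs (1.14, 0.892 to 1.46) and in cells picked by markers (1.31, 0.886 to 1.90).

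Pecam1 outside the endothelial-like cells was spread thinly over many clusters and reached its highest levels in blood and pluripotent cells. Of its 264 UMIs outside in the WT-labelled library, 69 lay in the mesenchyme-like, 57 in the Bnc1 and 45 in the main erythroid-like cluster, at 7.07, 5.40 and 11.4 CPM. In the same library it reached 57.1 CPM in 33 cells led by Dppa5a and Zfp42, genes of naive pluripotency, and 42.7 CPM in 57 myeloid and megakaryocyte-like cells. Under the TKO label 175 of the 183 Pecam1 UMIs lay outside the endothelial-like cells. There its ratio was 0.729 (0.599 to 0.886), much nearer to 1 than inside. The same 57 myeloid and megakaryocyte-like cells held Etv2 at 57.6 CPM, Kdr at 98.1 CPM and Tie1 at 78.9 CPM, but 0 UMIs of Icam2 and Emcn. In the TKO-labelled library no cell was in this cluster.

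Etv2 and Kdr also had a wide spread outside the endothelial-like cells, and the cells differed by library. Under the TKO label, an unnamed cluster of 883 cells led by Alx1, Col23a1 and Foxc1 held 36.6% of the Etv2 UMIs (19.8 CPM) and 33.7% of the Kdr UMIs (72.1 CPM). The 664 TKO-labelled cardiomyocyte-like cells stood at 11.9 CPM for Etv2 and 85.9 CPM for Kdr. The definitive endoderm-like cells of the same library, taken as cells that should lack both genes, stood at 1.86 CPM and 3.55 CPM, with Etv2 in 0.694% and Kdr in 0.893% of thinned cells. Median depths in these Alx1, cardiomyocyte-like and endoderm-like cells were 9372, 8357 and 10493.5 UMIs. Under the WT label Kdr ranged from 29.3 CPM in the mesenchyme-like cluster to 64.4 CPM in an unnamed cluster led by Igsf11 and Plac1, and Etv2 from 2.95 to 7.20 CPM over that cluster, the mesenchyme-like one and those led by Bnc1 and Pitx1.

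**Figure D2:**
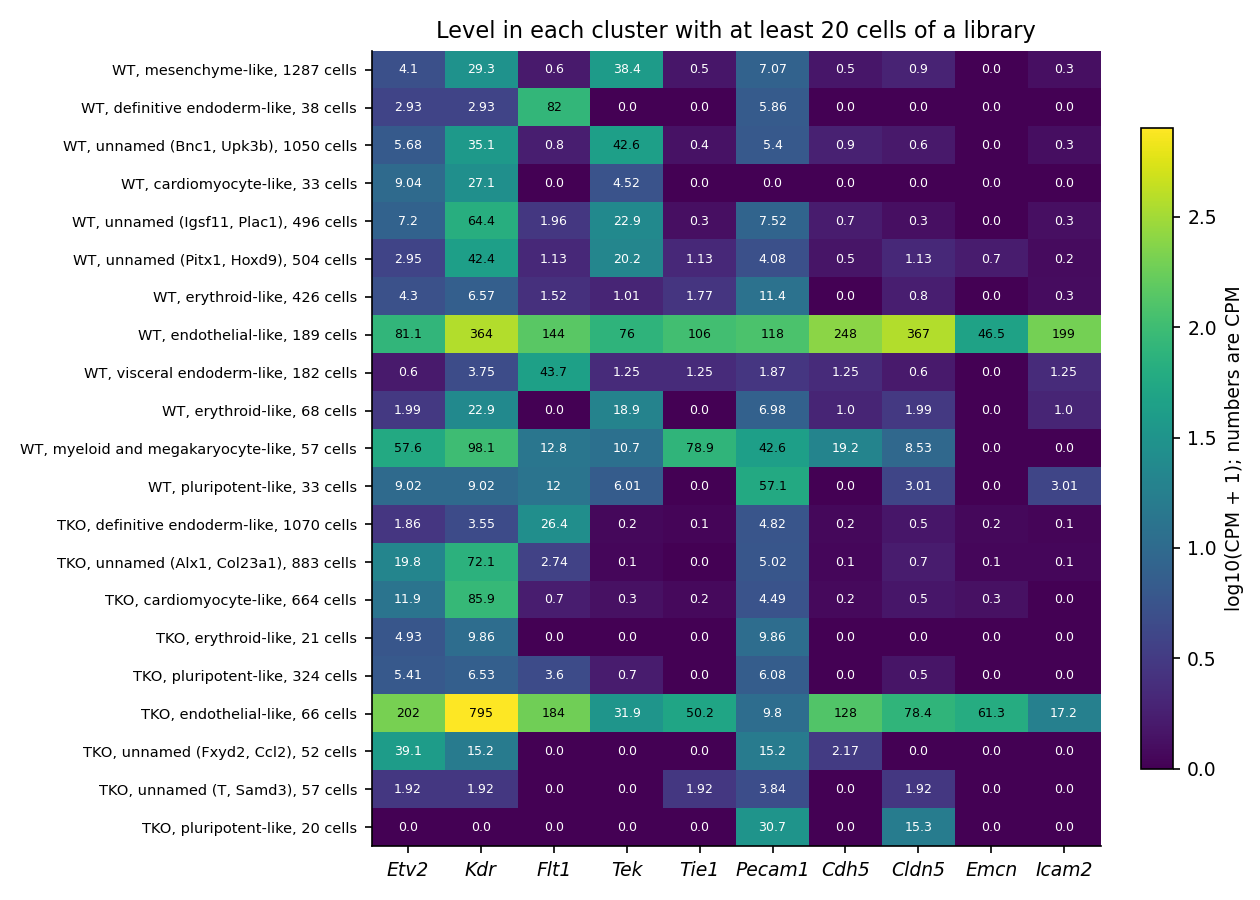
Level of each gene in each cluster with at least 20 cells of a library; color is log10(CPM + 1) and the printed numbers are CPM of summed UMIs. The endothelial-like rows are the highest for Cdh5, Cldn5 and Icam2 (248, 367 and 199 CPM under the WT label), whereas Tek is also high in WT-labelled mesenchyme-like cells (38.4 CPM) and Kdr in TKO-labelled cardiomyocyte-like cells (85.9 CPM).

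Within the endothelial-like cells the early genes were higher under the TKO label, and Tek, Tie1, Pecam1, Cdh5, Cldn5 and Icam2 were lower, Cdh5 by just under 2-fold. Here 2 of the 10 members were at least 2-fold higher, against 8.02% of the 9426 genes with at least 10 UMIs in these cells, and 5 were at least 2-fold lower, against 8.93%. The median log2 ratio was -1.005 over the members and 0.11 over all genes tested. The median endothelial-like cell had 7167 UMIs under the WT label and 11425.5 under the TKO label, so that levels are given as CPM and shares after thinning.

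Etv2 stood at 81.1 CPM (129 UMIs) in WT-labelled and 202 CPM (165 UMIs) in TKO-labelled endothelial-like cells, 2.49-fold higher in the latter (1.97 to 3.17). It was seen in 23.3% of the 163 and 39.7% of the 63 thinned cells, a difference of 16.4 percentage points (3.17 to 30.01). Kdr stood at 364 CPM and 795 CPM, 2.19-fold higher under the TKO label (1.95 to 2.45). All 66 full TKO-labelled cells held Kdr, with a median of 9 UMIs per cell against 2 under the WT label. After thinning, Kdr was in 95.2% of TKO-labelled and 70.6% of WT-labelled cells.

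Icam2 and Pecam1 were the members lowest in ratio in these cells. Icam2 stood at 199 CPM (316 UMIs) and 17.2 CPM (14 UMIs), 11.6-fold lower under the TKO label (6.80 to 21.4), and was in 90 of 163 and 4 of 63 thinned cells. Pecam1 stood at 118 CPM (188 UMIs) and 9.81 CPM (8 UMIs), 12.0-fold lower (5.99 to 28.3), and its level in all other TKO-labelled cells was 5.36 CPM. It was in 38.7% of WT-labelled and 9.52% (3.58 to 19.6) of TKO-labelled thinned cells, the latter against 1.69% of definitive endoderm-like cells of that library (median depth 10493.5 UMIs). The 8 Pecam1 UMIs lay in 6 cells, and in cells picked by a marker rule in place of clustering the Pecam1 ratio was 0.317 (0.132 to 0.656).

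The junction and Tie receptor genes were lower by less. Cldn5 stood at 367 CPM and 78.4 CPM, 4.68-fold lower under the TKO label (3.61 to 6.16). Cdh5 stood at 248 CPM and 128 CPM, 1.94-fold lower (1.56 to 2.43), just short of 2-fold; it passed 2-fold with each library clustered alone, with the members kept in the clustering, without the 5 cells richest in member UMIs, and in cells picked by markers. After thinning it was in 57.1% of WT-labelled and 22.2% of TKO-labelled cells. Tie1 stood at 106 CPM and 50.3 CPM, 2.10-fold lower (1.49 to 3.03), and Tek at 76.0 CPM and 31.9 CPM, 2.39-fold lower (1.55 to 3.80). The Tek difference was lost in cells picked by markers, where the ratio was 0.782 (0.349 to 1.59). Under the TKO label the 5 cells richest in each gene held 62.5% of Cldn5, 50% of Tek, 48.8% of Tie1 and 40.4% of Cdh5 UMIs. The values under the WT label were 15.2%, 17.4%, 19.6% and 21.3%. The intervals of the ratios take no account of this clustering of UMIs in few cells.

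Emcn and Flt1 were the members nearest to 1. Emcn stood at 46.5 CPM under the WT label and 61.3 CPM under the TKO label, a ratio of 1.32 (0.902 to 1.91). It was in 17.8% and 23.8% of thinned cells, a difference of 6.02 percentage points (-4.99 to 18.9). Flt1 stood at 145 CPM and 184 CPM, in 42.9% and 33.3% of thinned cells, so that its level was higher and its share of cells lower, with a difference in share of -9.61 percentage points whose interval (-22.5 to 4.72) spans 0.

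**Figure D3:**
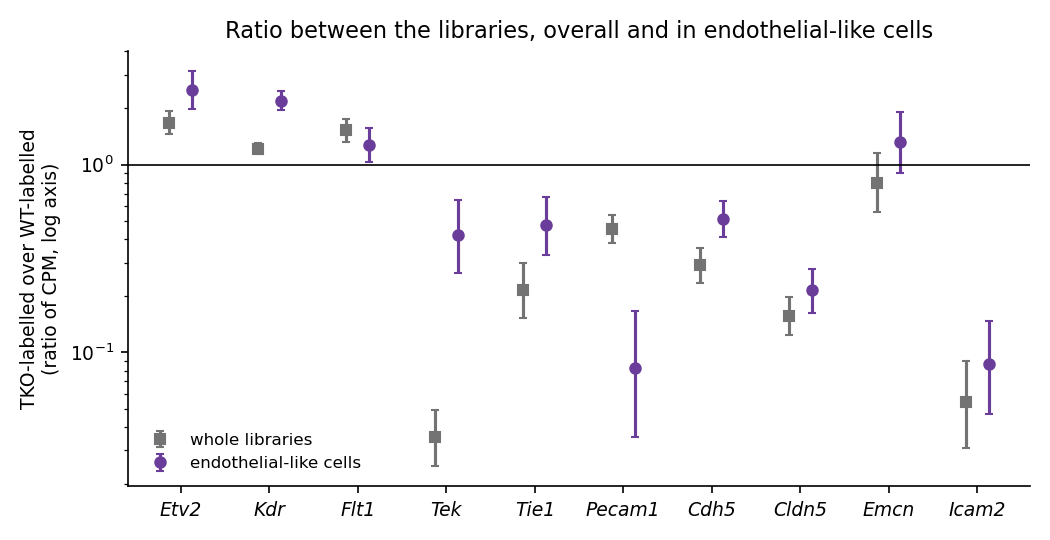
Ratio of CPM, TKO-labelled over WT-labelled, for each gene over whole libraries and within endothelial-like cells, on a log axis with 95% counting intervals; the line marks a ratio of 1. Restricting to endothelial-like cells raises the Etv2 ratio from 1.67 to 2.49, moves Tek from 0.0354 to 0.419 and lowers Pecam1 from 0.454 to 0.0830.

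**Figure D4:**
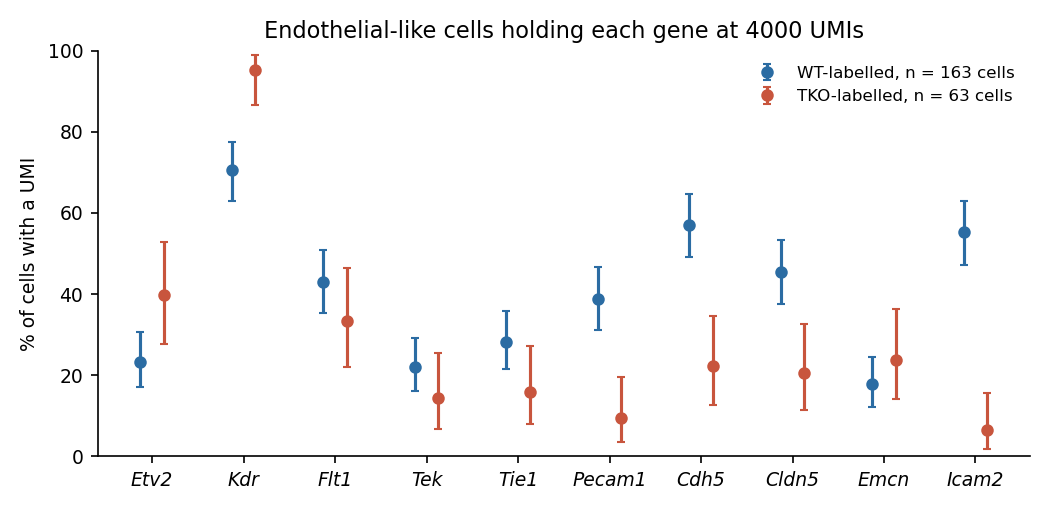
Share of endothelial-like cells with at least 1 UMI of each gene after thinning to 4000 UMIs, 163 WT-labelled and 63 TKO-labelled cells, with exact 95% binomial intervals. Kdr is in 95.2% of TKO-labelled cells and Icam2 in 6.35%, against 70.6% and 55.2% of WT-labelled cells.

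Markers of other cells in the endothelial-like cluster also differed. Erythroid markers summed to 919 CPM under the WT label and 62.5 CPM under the TKO label, with 1 and 6 of 12 at 0 UMIs, the latter including Gata1 and Klf1. Mesenchyme markers summed to 224 and 4.90 CPM, with 1 and 8 of 10 at 0, the latter including Col1a1, Col3a1 and Postn. Myeloid and megakaryocyte markers summed to 64.7 and 11.03 CPM, with 4 and 10 of 14 at 0; Ptprc and Csf1r were at 0 in both. Other lists were higher under the TKO label: neuroectoderm at 0.628 and 37.99 CPM, pluripotent at 27.7 and 93.2 CPM, definitive endoderm at 77.9 and 123 CPM and cardiomyocyte at 42.7 and 74.8 CPM. Sox17, also listed as an arterial gene, gave 72.9 and 40.5 CPM of the endoderm sums. Of the 6 endoderm genes with at least 10 UMIs, 5 were at least 2-fold higher (Trh, Cldn6, Epcam, Cpm and Pla2g1b) and 0 lower. Trh gave 0 and 14 UMIs, Cldn6 0 and 11, and Epcam 1 and 9. The part of these markers in the member ratios was not tested.

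The early genes outweighed the late genes more under the TKO label. Etv2 and Kdr together gave 2050 UMIs against 1493 of Pecam1, Cdh5 and Cldn5 in the WT-labelled library, 1.37 early UMIs per late UMI, and 2352 against 379, or 6.21, in the TKO-labelled library. That ratio was 4.52 times as high under the TKO label (3.98 to 5.13). Gene length and capture cancel for a single gene but not fully in these sums, because the mix of genes differed. Pecam1 gave 452 of the 1493 late UMIs under the WT label and 183 of the 379 under the TKO label. In endothelial-like cells the early-to-late ratio was 0.607 (708 against 1166 UMIs) and 4.63 (814 against 176), a factor of 7.62 (6.31 to 9.19). Outside them it was 4.10 and 7.58, a factor of 1.85 (1.53 to 2.23), and there Pecam1 gave 264 of 327 and 175 of 203 late UMIs. Late UMIs thus outnumbered early ones in WT-labelled endothelial-like cells, and in no other of these 4 sets of cells.

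Counted by cell, 747 of 4017 thinned WT-labelled cells (18.6%) and 452 of 3006 thinned TKO-labelled cells (15.0%) held any of the 5 genes. Only early genes were seen in 66.4% (62.9 to 69.8) of these under the WT label and in 78.8% (74.7 to 82.4) under the TKO label, 12.4 percentage points more (7.18 to 17.3). Both early and late genes were seen in 15.9% and 8.63%, and only late genes in 17.7% and 12.6%. In full cells the early-only shares were 65.6% and 71.4%. The late-only share, however, was 16.9% under the WT label and 18.1% under the TKO label in full cells, so its order reversed with depth.

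The difference was widest in the endothelial-like cells, and its interval there did not overlap that of all other cells. In them, 16.99% (11.4 to 23.9) of the 153 WT-labelled cells with any of the 5 genes and 57.1% (44.1 to 69.5) of the 63 TKO-labelled cells held only early genes, a difference of 40.2 percentage points (26.1 to 52.7). In full cells the shares were 10.3% and 33.3%, a difference of 23.1 percentage points (11.6 to 35.6), so its size depended on depth. In thinned cells, those with both kinds made up 66.0% and 39.7%, and cells with only late genes 16.99% and 3.17% (2 of 63). In all other cells the early-only shares were 79.1% and 82.3%, a difference of 3.14 percentage points whose interval (-1.99 to 8.04) spans 0.

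Both Kdr alone and Etv2 with Kdr, each without a late gene, took larger shares of endothelial-like cells under the TKO label at matched depth. Etv2 with Kdr was seen in 7 of 153 (4.58%, 1.86 to 9.20) under the WT label and 15 of 63 (23.8%, 13.98 to 36.2) under the TKO label, a difference of 19.2 percentage points (9.31 to 31.3), and in 3.24% and 22.7% of full cells. Kdr alone was seen in 9.80% (5.59 to 15.7) and 31.75% (20.6 to 44.7), and in full cells in 5.41% (2.62 to 9.72) and 10.6% (4.37 to 20.6), where the intervals overlap. Etv2 with a late gene but no Kdr was seen in 8 WT-labelled and 0 of 63 TKO-labelled cells, where a count of 0 allows up to 4.76%. Cells with Etv2, Kdr and a late gene together made up 12.4% and 14.3%.

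**Figure D5:**
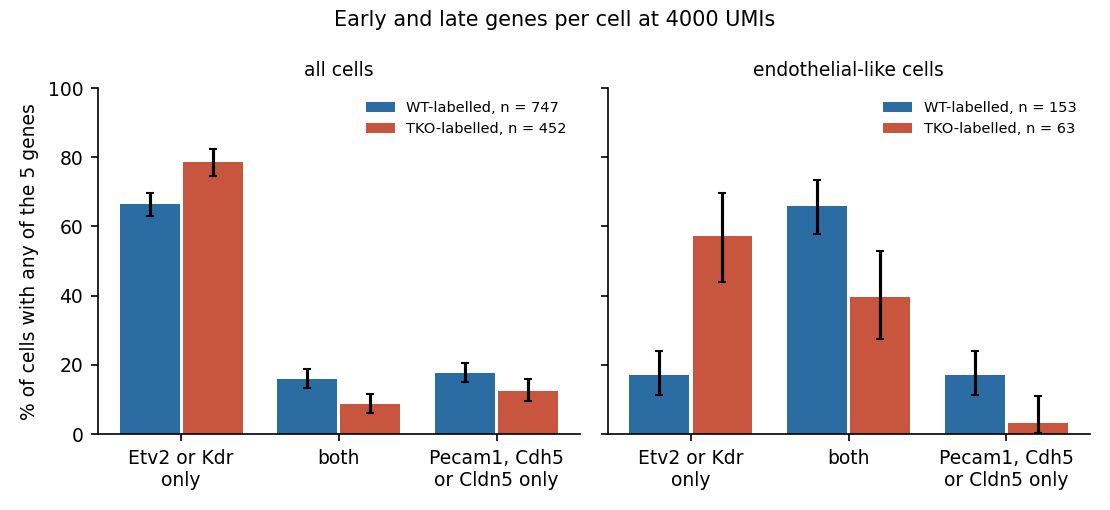
Cells with any of the 5 early and late genes at 4000 UMIs, split into those with Etv2 or Kdr only, with both kinds, and with Pecam1, Cdh5 or Cldn5 only, as a percentage with exact 95% binomial intervals. In endothelial-like cells the TKO-labelled bars put 57.1% in the early-only class against 16.99% for WT-labelled cells. Over all cells these shares are 78.8% and 66.4%.

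Endothelial-like cells could be ordered by how many of the 3 late genes they held. Under the WT label 36, 51, 49 and 27 of the 163 thinned cells held 0, 1, 2 and 3 late genes. Under the TKO label the numbers were 36, 22, 4 and 1 of 63. Cells with 2 or 3 late genes, which were common under the WT label, were thus few under the TKO label. In WT-labelled cells the share with Kdr was 61.1%, 62.7%, 75.5% and 88.9% at 0, 1, 2 and 3 late genes, and the share with Etv2 was 30.6%, 27.5%, 16.3% and 18.5%, with wide and overlapping intervals (16.4 to 48.1 at 0 and 6.30 to 38.1 at 3). TKO-labelled cells with 0 late genes held Kdr in 35 of 36 cells and Etv2 in 16 of 36.

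Over all 10 members, 28.3% of thinned WT-labelled and 18.0% of thinned TKO-labelled cells held at least 1. At least 4 members were held by 101 WT-labelled cells (2.51%), 99 of them endothelial-like, and by 18 TKO-labelled cells (0.599%), all endothelial-like. The fullest cell held 8 members under the WT label and 6 under the TKO label.

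The late genes were seen together in a lower share of TKO-labelled cells. Among thinned cells with Cdh5, Pecam1 was seen in 49 of 103 (47.6%, 37.6 to 57.6) under the WT label and 2 of 16 (12.5%, 1.55 to 38.4) under the TKO label, a difference (TKO minus WT) of -35.1 percentage points (-48.2 to -9.75). Icam2 was seen in 62 of the 103 and 1 of the 16 (difference -53.9, -64.2 to -29.9), and Cldn5 in 50 and 3 (-29.8, -45.2 to -3.77). Each gene alone was also rarer. Pecam1, Icam2 and Cldn5 were in 38.7%, 55.2% and 45.4% of all WT-labelled endothelial-like cells. Under the TKO label they were in 9.52%, 6.35% and 20.6%. Whether they were seen together less often than these shares alone would give was not tested. Kdr was seen in 71.8% (62.1 to 80.3) and 81.3% (54.4 to 96.0) of Cdh5 cells. Among cells with Pecam1, Cdh5 was seen in 49 of 167 and 2 of 67, and Icam2 in 44 of 167 and 0 of 67, which allows up to 4.48%. These Pecam1 cells differed in kind, since 63 of the 167 and 6 of the 67 were endothelial-like.

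A larger share of Etv2 cells held Kdr under the TKO label. Kdr was seen in 43 of 118 thinned Etv2 cells (36.4%, 27.8 to 45.8) under the WT label and in 48 of 92 (52.2%, 41.5 to 62.7) under the TKO label, a difference of 15.7 percentage points (2.23 to 28.5). Cells without Etv2 held Kdr in 12.7% and 10.4%. Cdh5 was seen in 16.1% (9.98 to 24.0) and 4.35% (1.197 to 10.8) of Etv2 cells, and in 2.15% and 0.412% of cells without Etv2. Icam2 was seen in 15.3% and 3.26% of Etv2 cells, and in 2.03% and 0.103% of the others. Both contact genes were thus lower under the TKO label in cells with and without Etv2.

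Cells with at least 3 Etv2 UMIs, a threshold chosen after the values were seen, made up much of the Etv2 signal under the TKO label. There were 20 such full cells in the WT-labelled library, holding 27.0% of its Etv2 UMIs, and 46 in the TKO-labelled library, holding 69.5%. Their median depths were 9956 and 11385.5 UMIs. Of the 20, 15 were endothelial-like. Of the 46, 22 were endothelial-like, 15 lay in the Alx1 cluster and 6 were cardiomyocyte-like.

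The Etv2-rich TKO-labelled cells outside the endothelial-like cluster mostly held Kdr as well. Of these 24 cells, 20 held Kdr, and 7 held Lmo2 and 2 held Tal1, both transcription factor genes of blood and endothelial progenitors. Pecam1 was held by 2 of them and Tek by 2, while Cdh5, Cldn5, Icam2 and Tie1 were each held by 0. After thinning, at least 3 Etv2 UMIs were seen in 6 of 4017 WT-labelled cells (0.149%, 0.0548 to 0.325), all endothelial-like, and in 19 of 3006 TKO-labelled cells (0.632%, 0.381 to 0.985), 12 of them outside. At least 3 Kdr UMIs were seen in 43 WT-labelled and 78 TKO-labelled thinned cells, 28 and 36 of them endothelial-like.

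Counts in the gene lists below can be read against all genes tested. Over whole libraries 12.6% were at least 2-fold lower and 13.7% higher under the TKO label, and in endothelial-like cells 8.93% and 8.02%. Among 15 other transcription factor genes of endothelium and blood, 5 were at least 2-fold lower under the TKO label over whole libraries (Tal1, Lyl1, Fli1, Erg and Sox18) and 2 higher (Foxc1 and Foxc2). Lyl1, a partner of LMO2 in early blood and endothelial cells, had the lowest ratio, 0.138 (0.106 to 0.177), and Foxc1, a forkhead gene of mesoderm, the highest, 60.3 (39.6 to 96.6). Within the endothelial-like cells 2 were lower (Lyl1 and Sox18) and 4 higher (Lmo2, Tal1, Sox7 and Foxc1); the Sox18 ratio of 0.459 (0.112 to 1.41) spans 1. Lmo2 stood at 141 CPM (225 UMIs) and 444 CPM (362 UMIs) there, 3.14-fold higher under the TKO label (2.65 to 3.72), and Tal1 was 2.12-fold higher (1.51 to 2.98). The ETS genes Fli1 and Erg, lower over whole libraries, had ratios of 0.944 (0.727 to 1.22) and 0.964 (0.653 to 1.41) in these cells. Etv2, Lmo2 and Tal1 were thus all higher there, with Fli1 and Erg close to 1.

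Of 9 genes that act upstream of Etv2 in mesoderm, 3 were at least 2-fold higher under the TKO label over whole libraries (T, Eomes and Mesp1, markers of the primitive streak and early mesoderm) and 2 lower (Bmp4 and Wnt3). T, the brachyury gene, was 21.0-fold higher (13.1 to 35.9), and Bmp4, which encodes a mesoderm-inducing ligand, had a ratio of 0.321 (0.302 to 0.340). In endothelial-like cells 3 of the 9 reached 10 UMIs, of which Bmp4 was lower (27 and 2 UMIs) and Pdgfra higher (5 and 7 UMIs), the latter with a ratio of 2.73 whose interval (0.746 to 10.9) spans 1.

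Of 8 VEGF ligand and other receptor genes, 3 were at least 2-fold lower under the TKO label over whole libraries (Pgf, Nrp1 and Nrp2) and 0 higher. Nrp2, which encodes a VEGF co-receptor, had the lowest ratio, 0.116 (0.105 to 0.129), and Flt4, which encodes VEGFR3, the highest, 1.25 (1.00 to 1.55). The ligand gene Vegfa stood at 8.11 and 7.44 CPM, a ratio of 0.917 (0.773 to 1.09). In endothelial-like cells none of the 6 with enough UMIs passed 2-fold, and Flt4 stood at 74.2 CPM and 135 CPM, 1.82-fold higher under the TKO label (1.39 to 2.38). All 3 VEGF receptor genes, Kdr, Flt1 and Flt4, thus had ratios above 1 both over the library and in these cells, with the limits on Flt1 given above.

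The angiopoietin genes were lower over the library, as Tek was, and were counted almost wholly outside the endothelial-like cells. Of 566 Angpt1, 175 Angpt2 and 337 Angpt4 UMIs under the WT label, 4, 9 and 2 lay in those cells. Mesenchyme markers moved with them, 1887 and 28.9 CPM in sum, and their part was not tested. All 4 genes of this list, Angpt1, Angpt2, Angpt4 and the receptor phosphatase gene Ptprb, were at least 2-fold lower over the TKO-labelled library. Angpt4 had the lowest ratio, 0.0366 (0.0181 to 0.0663), and Angpt2 the highest, 0.480 (0.361 to 0.633). Angpt1, which encodes the main activating ligand of TIE2, stood at 15.1 CPM (566 UMIs) and 0.776 CPM (26 UMIs). In endothelial-like cells Ptprb gave 49 and 2 UMIs, a ratio of 0.0796 (0.00938 to 0.303).

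Of 15 other endothelial surface and junction genes, 10 were at least 2-fold lower over the TKO-labelled library and 0 higher. Clec14a, an endothelial lectin gene, had the lowest ratio, with 39 UMIs under the WT label and 1 under the TKO label (ratio 0.0287, 0.000709 to 0.170), and the junction gene Jam2 the highest, 1.66 (0.947 to 2.94). In endothelial-like cells 7 of 14 were lower and 0 higher, although Plvap, Ramp2 and Esam among the 7 also helped to form the cluster. Cd93, an endothelial surface receptor gene, gave 111 and 5 UMIs there, a ratio of 0.0879 (0.0280 to 0.211). Egfl7, a secreted endothelial factor gene, stood the other way, at 715 and 1331 CPM, 1.86-fold higher under the TKO label (1.71 to 2.02).

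Of 15 arterial, venous and Notch genes, 3 were at least 2-fold lower over the TKO-labelled library (Gja4, Gja5 and Acvrl1) and 5 higher (Hey1, Sox17, Jag1, Nr2f2 and Cxcr4). The shares over all genes tested were 12.6% and 13.7%. Jag1, a Notch ligand gene, had the highest ratio, 22.4 (15.3 to 34.0), and Gja5, the arterial connexin 40 gene, the lowest, with 32 and 2 UMIs (0.0700, 0.00813 to 0.274). In endothelial-like cells 4 were lower (Gja4, Gja5, Notch4 and Acvrl1) and 2 higher (Hey1 and Hey2). The connexin gene Gja4 gave 105 and 11 UMIs there, a ratio of 0.204 (0.0990 to 0.381). Genes higher over the library were largely counted elsewhere: of 559 Jag1, 1163 Sox17, 983 Nr2f2 and 252 Cxcr4 UMIs under the TKO label, 4, 33, 38 and 5 lay in endothelial-like cells, and of 894 Hey1 UMIs 76. Sox17, also a gene of definitive endoderm, whose 10 markers were all at least 2-fold higher over the TKO-labelled library, had a ratio of 0.555 (0.365 to 0.823) in endothelial-like cells.

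The genes whose counts were most like the summed late genes overlapped in part between the libraries, among 10878 genes ranked under the WT label and 10610 under the TKO label. Over 4017 thinned WT-labelled cells the 8 highest Pearson correlations were with Plvap (0.62), Ramp2 (0.62), Esam (0.61), Ctla2a (0.59), Igf1 (0.53), Rhoj (0.53), Gngt2 (0.52) and Dusp2 (0.48). Over 3006 thinned TKO-labelled cells they were with Flt4 (0.31), Gng11, Ctla2a, Ecscr, Rhoj, Dusp2, Hapln1 and Rasip1 (0.27 for the last). The 3 genes Ctla2a, Rhoj and Dusp2 were in both lists. The late sum itself was weighted differently. Under the TKO label it followed Pecam1 most (0.76, against 0.56 for Cldn5 and 0.51 for Cdh5). Under the WT label these values were 0.70, 0.79 and 0.78. Cells of 1 library share depth and preparation, and the values describe these cells only. For Etv2 the highest value was 0.22 under the WT label (Ctla2a) and 0.31 under the TKO label (Lmo2), which in counts this sparse is weak.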

How the data were processed

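Gene counts per cell were analysed for the WT-labelled and TKO-labelled day 5 libraries, grouped by the genotype in the labels. The authors deposited raw counts, whole numbers read here as UMI counts; the notes of the submitters name Seurat 3, BSMAP, MACS2, DESeq2 and mm10 without a role, and aligner, chemistry and prior filters are not given in these sources. The TKO-labelled table has 3224 header names but 3223 values per row, and was read by column position.

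Cells with over 15% mitochondrial UMIs were removed (3 and 26). Scrublet marked 3 and 1 cells, too few to be credible, and doublets were otherwise not removed. Summed UMIs were scaled to CPM, with exact Poisson intervals; ratios have exact binomial and shares Clopper-Pearson intervals, and differences of shares Newcombe intervals. Cells were thinned to 4000 UMIs for shares, which left out 372 and 190 shallower cells. Clustering (scanpy 1.11.5, 2000 variable genes without the 10 members, 30 components, 15 neighbours, Leiden resolution 0.8) named a cluster from at least 3 list markers among its 10 leading genes. The ratio script was tested on simulated data. Ratios of at least 2-fold were counted over genes with at least 10 UMIs.

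All 10 members were named in full. From each pathway list the highest and lowest ratios with at least 20 UMIs were named, with any gene behind a count of 5 or fewer; Fli1, Erg, Vegfa, Angpt1, Flt4, Cd93, Egfl7 and other genes named within endothelial-like cells were chosen after their values were seen. Members and lists were chosen with earlier results of these data known. Alternatives changed scaling, filters, depth, clustering and the late list.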

Additional observations from a re-analysis of the deposited data

How the results depend on the processing

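With 1 library per group, no alternative can test replication. No paired analysis was possible because each group has 1 library. Of the 49 main comparison values recomputed, 39 stayed within counting error (numbers of members, within 1.5 times) and 10 moved. Some of the 39 could not move. Scaling cancels in the early-to-late factor, and the minimum of UMIs for the background does not enter the number of members. Of 130 single-gene values 121 kept, 9 moved and 0 reversed. The early-to-late factor was 5.14 (4.14 to 6.38) in thinned cells. The early-only share of WT-labelled cells was 36.5% with all 8 other members as late genes, 78.7% without Pecam1, 70.1% without Cdh5, 69.9% without Cldn5 and 25.5% with Etv2 alone as early gene. The share of TKO-labelled cells was 71.4% in full cells, 60.9% with all 8 others as late, 91.8% without Pecam1 and 46.4% with Etv2 alone. It was higher under the TKO label in 13 of 13 alternatives. The moves with other gene lists follow from their construction, since a shorter late list leaves more cells early-only and a longer one fewer. Within endothelial-like cells the number of members at least 2-fold apart ran from 6 to 8 around 7. Over whole libraries 8 members were at least 1.5-fold apart, against 42.1% of the 15344 genes with at least 10 UMIs. At 3-fold there were 5, against 16.1% of those genes. Removing the 5 cells richest in member UMIs from each library was added after seeing the data and left 6 members apart over whole libraries and 8 in the cluster. Shares of cells and ratios resting on few UMIs (8 for Pecam1 and 14 for Icam2 in TKO-labelled endothelial-like cells) are limited by depth.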
